A study of Mus musculus with 6 samples.

Results

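Cortical layer and interneuron identity genes were followed in cultured mouse cortical neurons before and during depolarization. They are genes whose products, mostly transcription factors, mark and set the type of a cortical neuron. The members were taken from a list of 39 names, given by name, with no measured value in the rule, although the list was drawn up with earlier results of these libraries known. They resolved to 37 genes of the 43432 genes in the tables, because Ctip2 is an older name of Bcl11b and was counted once, and Mef2c-as matched no identifier and was given no value. They fall into 7 upper layer genes, 10 deep layer genes, 4 projection neuron genes, 4 genes for reelin and calcium-binding proteins and 12 interneuron genes. All 37 exceeded 3 counts in at least 1 library and all 37 received an adjusted p in every comparison.

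The neurons came from the cortex of wild-type C57BL/6 embryos at E16.5, with both sexes pooled, and were grown for 7 days. In all 3 groups, the 0 h group included, firing and NMDA receptors were blocked overnight with 1 μM tetrodotoxin (TTX, a sodium channel blocker) and 100 μM DL-AP5. The groups then spent 0 h, 2 h or 6 h in 55 mM KCl, which depolarizes the membrane and lets calcium in through voltage-gated channels. Each group had 2 RNA-seq libraries, which the study treated as biological replicates, and the labels do not say whether these came from separate dissections, so p-values measure the spread between these libraries. All embryos, dishes and cell types of a culture were read together, so fewer cells of a type and less RNA per cell cannot be told apart in any value that follows.

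The cortex is built of layers. Projection neurons use glutamate, are born in the dorsal wall of the forebrain and take an upper or deep layer identity under transcription factors that often repress each other. Tbr1 and Fezf2, for example, set apart neurons that project to the thalamus from those that project to the brainstem and spinal cord. Interneurons use GABA, are born in the ventral forebrain under the Dlx homeobox genes and migrate into the cortex, where Lhx6 marks those of the medial ganglionic eminence and Prox1, Sp8 and Nr2f2 many of those of the caudal one. Several listed genes are not exclusive to their class, since Nr2f1, Zeb2 and Id2 are also made in projection neurons or glia and Satb1 also in interneurons.

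Total expected counts, the read counts that RSEM assigns to genes, were 25959298 to 28573067 per library, and 18767 to 19212 genes had a count. Fos, the immediate-early gene used as the check of the treatment, had 38.2 and 34.6 normalized counts at 0 h, 6939 and 8222 after 2 h, and 3915 and 3806 after 6 h. A normalized count is an expected count divided by the size factor of its library. The 2 h replicates stood further apart than the others. Over 12290 genes whose counts averaged 50 or more, replicate log2 values differed with an SD of 0.429 after 2 h of KCl, compared with 0.246 in silenced cells and 0.214 after 6 h. At 2 h this difference ran with the GC content of the gene (Spearman's rho -0.719 across genes), and over the 37 members rho was -0.62. As a description of the members, 7 differed by more than 0.5 on the log2 scale between the 2 h replicates, namely Pou3f2, Rorb, Foxp2, Emx1, Calb1, Pvalb and Zeb2.

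Markers of both main neuron types and of other cells were present at every time. The 8 pan-neuronal markers summed to 5521 to 6207 TPM over the libraries, a deposited level that corrects for transcript length. The 8 astrocyte markers summed to 597 and 640 TPM at 0 h, 574 and 574 after 2 h, and 481 and 463 after 6 h, and 4 of them were lower at 6 h than at 0 h by adjusted p, none past the 2-fold limit. The 10 progenitor markers summed to 351 and 384 TPM at 0 h, 396 and 452 after 2 h, and 660 and 672 after 6 h, and at 6 h against 0 h Vim (log2 fold change 1.42) and Nes (1.08) were called higher and Hes5 (-1.81) lower. Tubb3, the tubulin of neurons, was called lower at 6 h against 0 h (log2 fold change -1.01, DESeq2 adjusted p = 1.37e-12), from a mean of 1659 TPM to 730 TPM, and it was the one pan-neuronal marker called in that comparison. The call of Tubb3 was lost without the 6 h replicate 1 (-0.90) and that of Nes without the 0 h replicate 1 (0.96). The 10 striatal projection neuron markers summed to 79.3 to 95.6 TPM, the 6 oligodendrocyte lineage markers to 91.6 to 140 TPM, the 6 microglial markers to 2.37 to 6.48 TPM and the 6 vascular markers to 2.11 to 3.16 TPM. Of these 4 lists, against 0 h, Drd1 and Sox10 were called lower and Pecam1 higher at 2 h, while Drd2, Adora2a and Pdgfrb were called lower and Pecam1 and P2ry12 higher at 6 h. The calls of Pecam1, Drd2, Adora2a and P2ry12 were each lost in 2 to 6 of the 6 fits that left out a library. The vascular genes Cldn5 and Foxc1 were at or under 3 counts throughout. The part of other cell types in the changes given here was not tested.

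To place the members in silenced neurons, their TPM at 0 h were ordered. The range ran from Lmo4, a LIM-only transcriptional adaptor, with 432 ± 39.3 TPM (SD, n = 2) to Pvalb, the calcium buffer of fast-spiking interneurons, with 0.695 ± 0.0354 TPM. Of the 37 members, 26 had a mean of at least 10 TPM, and the 20042 genes above 0 at 0 h had a median of 6.78 TPM. After Lmo4 came Neurod6 with 264 ± 0.467 TPM, Id2 with 147 ± 14.9, Calb2 with 123 ± 5.25, Zeb2 with 101 ± 1.87, Lmo3 with 94.2 ± 7.82 and Dlx1 with 79.6 ± 3.67 TPM. These leading genes come from all 5 classes. Cux1 had 67.6 ± 1.94 TPM, Bcl11a 63.3 ± 3.01, Reln 43.3 ± 2.88, Nr2f1 36.8 ± 1.03, Tbr1 36.7 ± 2.84, Lhx6 36.5 ± 1.98, Etv1 31.8 ± 3.56, Satb1 31.1 ± 0.219 and Foxp1 25.8 ± 3.02 TPM.

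A broad middle group held Neurod2 with 20.5 ± 0.184 TPM, Calb1 with 19.4 ± 2.04, Sox5 with 18.7 ± 4.13, Cux2 with 18.2 ± 2.10, Tle4 with 17.7 ± 0.269, Bcl11b with 17.5 ± 1.22, Pou3f3 with 16.0 ± 0.233, Fezf2 with 12.2 ± 0.537, Pou3f2 with 10.3 ± 1.09 and Dlx6 with 10.3 ± 0.431 TPM. Below 10 TPM were Nr2f2 (9.54 ± 0.552), Neurod1 (8.98 ± 1.80), Foxp2 (6.40 ± 0.219), Prox1 (6.25 ± 0.339), Rorb (5.28 ± 0.884), Dlx2 (4.26 ± 0.361), Dlx5 (3.87 ± 0.728), Sp8 (3.03 ± 0.368), Emx1 (1.68 ± 0.516) and Nkx2-1 (1.16 ± 0.495). In this order 14 of 36 neighbouring pairs had overlapping replicates. The order was therefore not resolved between Zeb2 and Lmo3, among Nr2f1, Tbr1 and Lhx6, between Etv1 and Satb1, from Neurod2 through Bcl11b, between Pou3f2 and Dlx6, Nr2f2 and Neurod1, Foxp2 and Prox1, Dlx2 and Dlx5, or Emx1 and Nkx2-1. Only neighbours were compared, and some genes further apart also overlapped. Sox5 (21.62 and 15.78 TPM) overlapped Pou3f3 (16.20 and 15.87), and Neurod1 (7.71 and 10.26) overlapped Dlx6 (10.65 and 10.04). The Dlx genes spanned much of the range, with Dlx1 at 79.6 TPM and Dlx5 at 3.87 TPM.

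**Figure D1:**
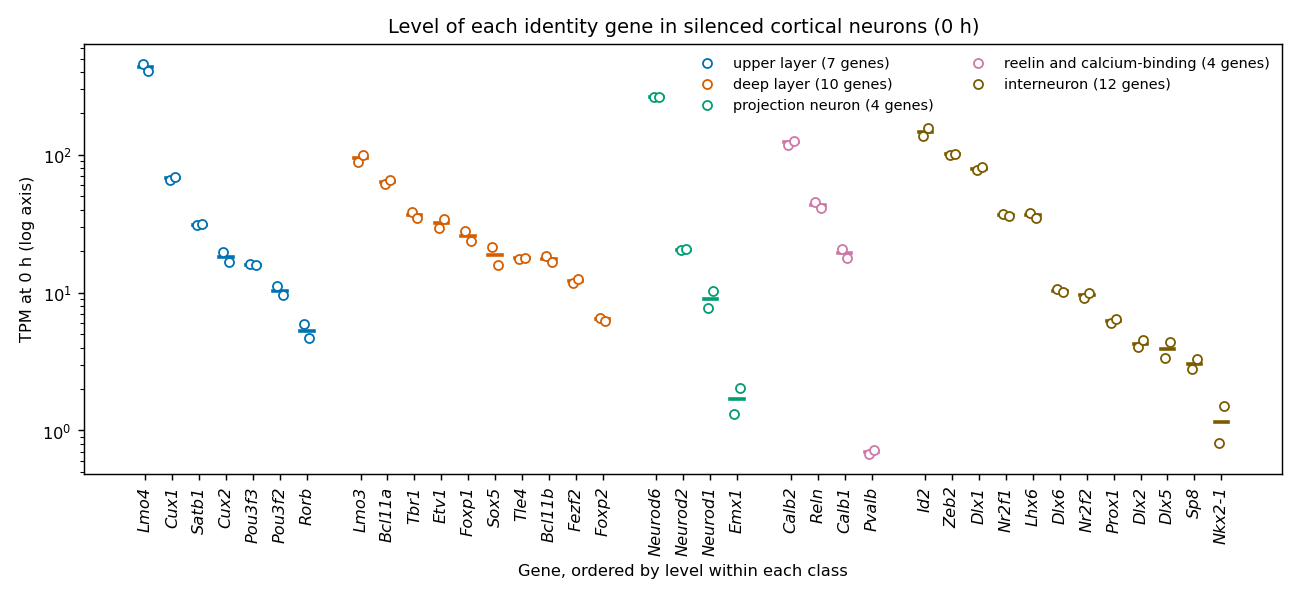
Level of each of the 37 identity genes at 0 h, in TPM on a log axis, grouped by class and ordered within it; circles are the 2 replicates and bars their mean. Lmo4 (432 TPM) and Neurod6 (264 TPM) lie highest, and Pvalb (0.695 TPM) lies lowest.

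Depolarization moved few members past the limits of the test. A gene was called when DESeq2's adjusted p was at most 0.05 and the change exceeded 2-fold, a log2 fold change beyond 1 in either direction. At 2 h against 0 h, 2 of 37 members were called higher (5.41%, against 3.62% of the 16840 genes with an adjusted p) and 0 were called lower (against 5.94% of all genes). At 6 h against 0 h, 3 were called higher (8.11%, against 9.10%) and 0 lower (against 10.2%). Between 2 h and 6 h, 4 were called higher at 6 h (10.8%, against 10.1%) and 2 lower (5.41%, against 8.02%). The shares of higher calls lie near those of all genes, and no share was tested against them. By adjusted p alone, whatever the fold, 10 members were higher and 2 lower at 2 h than at 0 h, 12 were higher and 1 lower at 6 h than at 0 h, and 9 were higher and 7 lower at 6 h than at 2 h. At an unadjusted p under 0.05, 3 members were lower at 2 h and 4 at 6 h than at 0 h. These counts by p alone were not set beside those of all genes, so they describe the members only. At the limits of a call, edgeR's quasi-likelihood test likewise called 0 lower at 2 h and at 6 h against 0 h.

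The median log2 fold change of the members was 0.19 at 2 h and 0.36 at 6 h against 0 h, and 0.09 between 2 h and 6 h, beside 0.011, -0.004 and 0.005 over all genes that averaged 10 counts or more. With library totals as size factors, the medians of all genes shifted to -0.156, -0.251 and -0.075, and those of the members to 0.03, 0.11 and 0.02. That scaling also moved the calls at 6 h against 0 h over all genes from 1572 higher and 1761 lower to 1032 higher and 2564 lower. The comparisons share libraries, the 0 h pair for both treated groups and the treated pairs for the third comparison, so the values of a gene in them are not independent.

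**Figure D2:**
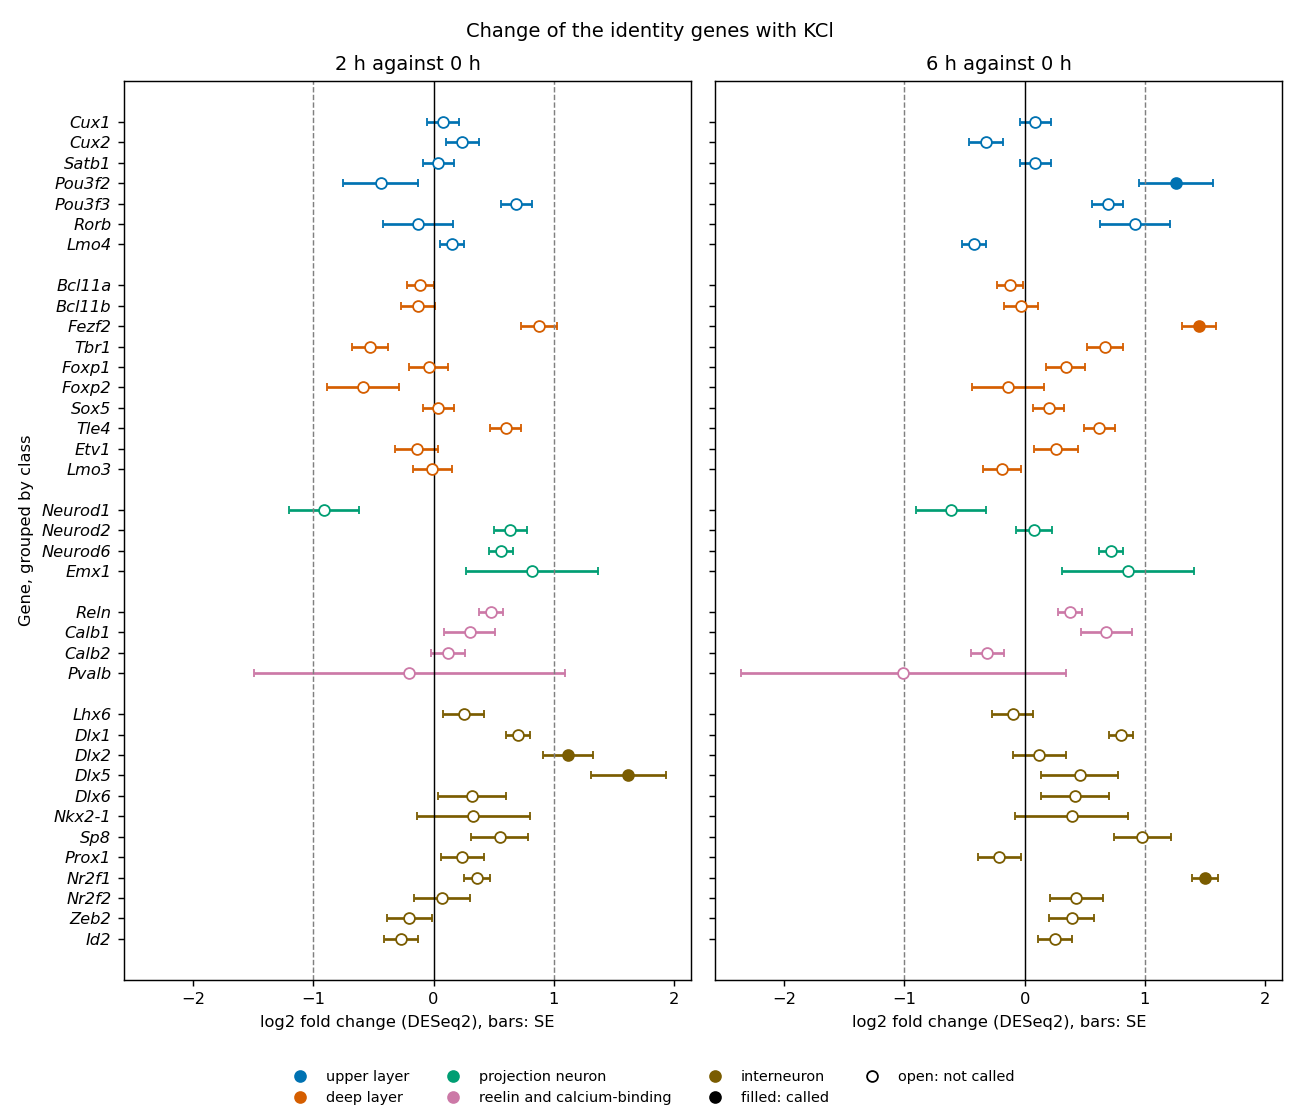
Log2 fold change of each identity gene at 2 h (left) and 6 h (right) against 0 h, by class, with bars for the standard error; dashed lines mark the 2-fold limit and filled circles the called genes. Filled are Dlx2 and Dlx5 at 2 h, and Pou3f2, Fezf2 and Nr2f1 at 6 h.

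In all, 7 members were called in at least 1 comparison and 30 in none. The 7 followed 4 courses: Dlx2 and Dlx5 were higher at 2 h than at either other time, Pou3f2 and Nr2f1 were higher at 6 h than at either other time, Fezf2 was higher at 6 h than at 0 h, and Rorb and Tbr1 passed the limits from 2 h to 6 h alone.

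**Figure D3:**
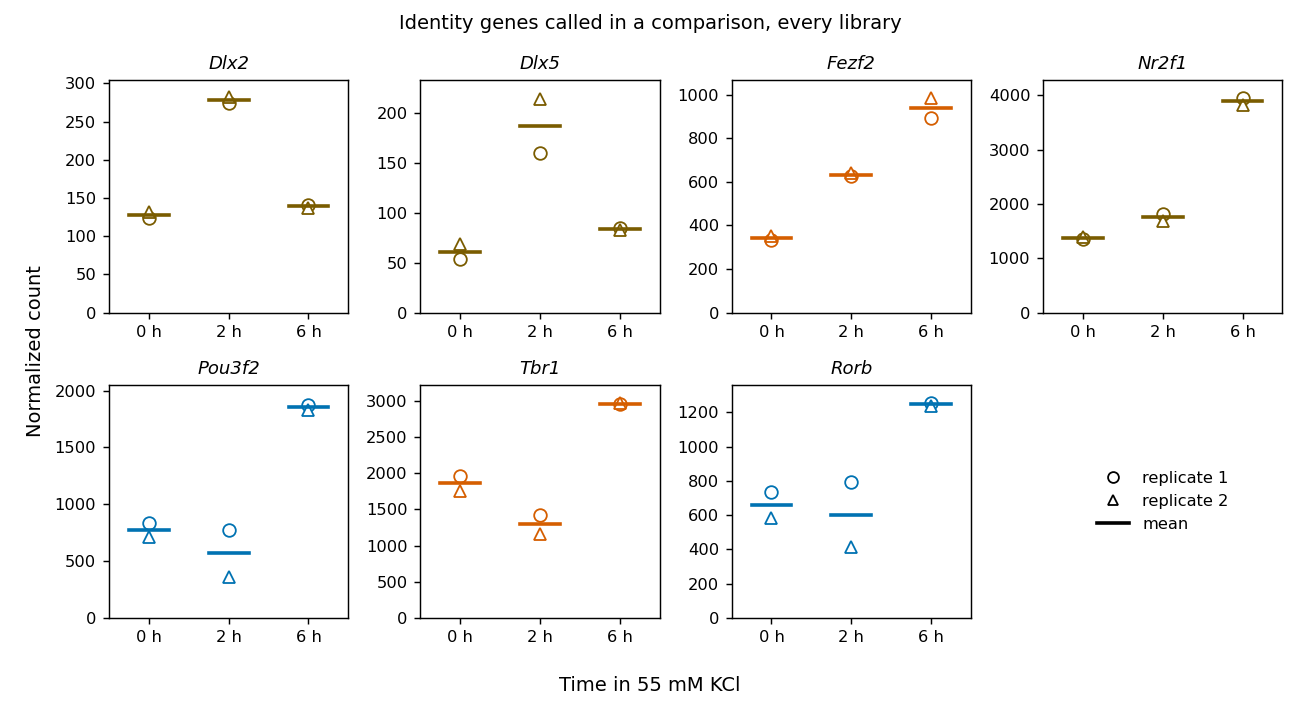
Normalized counts of the 7 called identity genes in every library by hours in 55 mM KCl; circles are replicate 1, triangles replicate 2 and bars the mean, and each panel has its own scale from 0. Dlx2 and Dlx5 peak at 2 h (means of 277.9 and 186.9), and the other 5 genes have their highest means at 6 h, while the 2 h replicates of Pou3f2 and Rorb lie far apart.

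Among the interneuron genes, the Dlx family gave the 2 h calls. Dlx genes encode homeobox transcription factors that drive the GABAergic program and sit in pairs, Dlx1 beside Dlx2 and Dlx5 beside Dlx6. Dlx2 (ENSMUSG00000023391, chr2:71543408-71546754, minus strand, GRCm38) had 123.4 and 132.3 normalized counts at 0 h, 273.6 and 282.2 after 2 h, and 141.2 and 136.6 after 6 h. Both 2 h libraries lay above all others, and those of 6 h lay just above those of 0 h. Dlx2 was 2.17-fold higher after 2 h than at 0 h (log2 fold change 1.12, SE 0.21, DESeq2 adjusted p = 1.45e-06). From 2 h to 6 h it fell by 1.00 on the log2 scale (SE 0.21, adjusted p = 1.37e-05), which is at the limit of a call. That second call was lost without either the 2 h replicate 2 (log2 fold change -0.96) or the 6 h replicate 2 (-0.98), and after a correction for GC content (-0.81). The 2 h call was lost with library totals as size factors (0.95).

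Dlx5 (ENSMUSG00000029755, chr6:6877805-6882085, minus strand) had 53.3 and 68.3 normalized counts at 0 h, 159.8 and 214.0 after 2 h, and 84.5 and 82.8 after 6 h. The groups did not overlap, and the 2 h libraries were the highest. Dlx5 was 3.07-fold higher after 2 h than at 0 h (log2 fold change 1.62, SE 0.31, DESeq2 adjusted p = 1.82e-06, 95% interval 1.02 to 2.22). From 2 h to 6 h it fell by 1.16 on the log2 scale (SE 0.30, adjusted p = 5.32e-04). Without the 2 h replicate 2 that fall was -0.92 with an adjusted p of 0.0748. At 6 h against 0 h the log2 fold changes of Dlx2 (0.12) and Dlx5 (0.46) had adjusted p of 0.700 and 0.242.

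Their neighbours took other courses. Dlx1 had 2059 and 2146 normalized counts at 0 h, 3335 and 3474 after 2 h, and 3721 and 3616 after 6 h. Its log2 fold changes of 0.70 at 2 h and 0.80 at 6 h passed the adjusted p (1.35e-10 and 2.32e-14) but not the 2-fold limit, and the difference between 2 h and 6 h was 0.11. Dlx1 overlaps Dlx1as, a transcript of the opposite strand, in its exons and had non-whole counts in all 6 libraries, so reads may be shared between them. Dlx1as itself was called higher at 2 h (log2 fold change 1.07, SE 0.23, DESeq2 adjusted p = 2.57e-05) and at 6 h (1.42, SE 0.22, adjusted p = 2.39e-09). Its 2 h call was lost without the 2 h replicate 1 (0.78) and without the 0 h replicate 2. Dlx6 had 90.5 and 77.5 normalized counts at 0 h, 107.8 and 102.3 after 2 h, and 104.9 and 119.4 after 6 h, and its log2 fold changes of 0.32 and 0.42 did not pass the test.

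As log2 ratios of counts within a library, Dlx2 to Dlx1 averaged -4.04 at 0 h, -3.61 at 2 h and -4.72 at 6 h, and the 3 groups did not overlap. Dlx5 to Dlx6 averaged -0.47 at 0 h, 0.82 at 2 h and -0.42 at 6 h, with both 2 h libraries above the other 4. A size factor cancels in such a ratio. The noncoding RNA Dlx6os1, read from the Dlx5 and Dlx6 locus and examined after the data were seen, had 1063 and 1051 normalized counts at 0 h, 1047 and 491.1 after 2 h, and 4544 and 4036 after 6 h, and was called higher after 6 h than at 0 h (log2 fold change 2.02, SE 0.30, DESeq2 adjusted p = 9.97e-11).

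**Figure D4:**
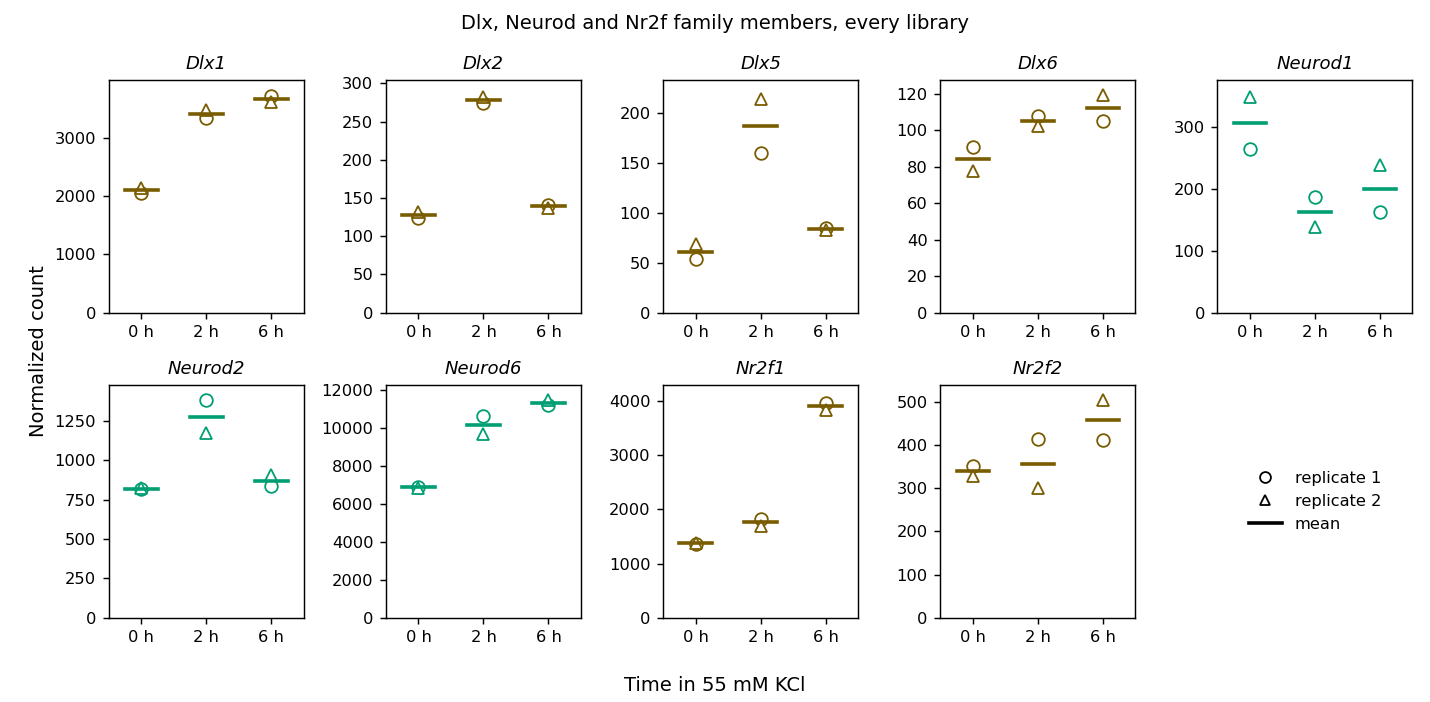
Normalized counts of the Dlx, Neurod and Nr2f family members in every library by hours in 55 mM KCl; circles are replicate 1, triangles replicate 2 and bars the mean, and each panel has its own scale from 0. Dlx2, Dlx5 and Neurod2 have their highest means at 2 h, and Dlx1, Neurod6 and Nr2f1 at 6 h.

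Promoter windows are shown for Dlx2, Fezf2 and Nr2f1, as one of the genes called at 2 h and the pair whose 6 h calls held under every setting tried. Each window is RefSeq sequence on GRCm38.p6, from 250 bases before to 50 bases after an annotated start, read 5′ to 3′ on the gene's strand. The Dlx2 window is chr2:71546705-71547004 (minus strand) and the Fezf2 window chr14:12345816-12346115 (minus strand), and capitals mark the motif found. The Nr2f1 window, the first of those listed for that gene, is chr13:78198824-78199123 (minus strand) and holds none of the motifs.
Dlx2: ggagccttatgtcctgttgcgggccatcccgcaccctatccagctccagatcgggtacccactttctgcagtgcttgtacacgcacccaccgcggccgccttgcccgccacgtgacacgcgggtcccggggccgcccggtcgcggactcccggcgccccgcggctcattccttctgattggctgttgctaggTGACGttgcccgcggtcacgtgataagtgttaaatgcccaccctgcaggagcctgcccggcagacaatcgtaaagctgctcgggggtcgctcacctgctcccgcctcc
Fezf2: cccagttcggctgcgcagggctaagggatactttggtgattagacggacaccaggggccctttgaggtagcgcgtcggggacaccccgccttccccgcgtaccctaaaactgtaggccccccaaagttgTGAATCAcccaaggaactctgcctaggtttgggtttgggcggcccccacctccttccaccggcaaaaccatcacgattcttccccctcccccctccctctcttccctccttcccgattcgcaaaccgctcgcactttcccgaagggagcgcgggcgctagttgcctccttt
Nr2f1: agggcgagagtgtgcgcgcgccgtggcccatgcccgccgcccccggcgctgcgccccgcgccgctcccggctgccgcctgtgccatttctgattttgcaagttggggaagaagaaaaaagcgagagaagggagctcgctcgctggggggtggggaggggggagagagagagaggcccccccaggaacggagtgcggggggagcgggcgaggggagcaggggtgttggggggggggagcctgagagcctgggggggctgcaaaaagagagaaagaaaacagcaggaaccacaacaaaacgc
The motifs searched, on both strands, were TGACGTCA (the cAMP response element bound by CREB), its core TGACG, which the full element contains, and TGANTCA (the AP-1 site bound by Fos and Jun). The capitals in Dlx2 are TGACG, beginning 58 bases before the start, and those in Fezf2 are TGAATCA, beginning 121 bases before the start. Windows were at hand for 32 members, 54 windows in all, and Calb1, Calb2, Dlx5, Dlx6 and Foxp2 had none. The full element was in 0 of the 54 windows and in 1.79% of all 32851 windows. The core was in 6 windows (11.11%) of Dlx2, Foxp1, Neurod2, Nkx2-1 and Zeb2, against 20.81% of all windows. The AP-1 site was in 4 windows (7.41%) of Fezf2, Lhx6, Rorb and Zeb2, against 7.81%. A match describes these letters only.

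Nr2f1 (COUP-TFI), an orphan nuclear receptor that patterns cortical areas and is made in many interneurons, had the largest log2 fold change of all members at 6 h against 0 h. At ENSMUSG00000069171 (chr13:78188973-78199757, minus strand) it had 1358 and 1385 normalized counts at 0 h, 1818 and 1695 after 2 h, and 3955 and 3829 after 6 h. Replicates lay close together and the 3 groups did not overlap. Nr2f1 was 2.84-fold higher after 6 h than at 0 h (log2 fold change 1.50, SE 0.11, DESeq2 adjusted p = 5.13e-43) and 2.22-fold higher after 6 h than after 2 h (1.15, SE 0.11, adjusted p = 3.36e-25). At 2 h against 0 h the log2 fold change was 0.36 (adjusted p = 0.00537), under the 2-fold limit. An exon of the opposite-strand gene A830082K12Rik overlaps Nr2f1. It was not called, with log2 fold changes of -0.41 at 2 h and 0.42 at 6 h against 0 h, and both genes had whole counts in every library.

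Its paralogue Nr2f2 (COUP-TFII) had 350.6 and 327.8 normalized counts at 0 h, 414.4 and 299.8 after 2 h, and 410.9 and 503.4 after 6 h. The log2 fold change at 6 h was 0.43 (SE 0.22) with an adjusted p of 0.106. The log2 ratio of Nr2f1 to Nr2f2 averaged 2.02, 2.32 and 3.10 at 0, 2 and 6 h, without overlap between the groups.

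The other interneuron members were not called. Sp8, a zinc finger factor of caudal and olfactory interneurons, came nearest, with 164.2 and 193.0 normalized counts at 0 h, 299.6 and 222.3 after 2 h, and 384.1 and 320.5 after 6 h. Its log2 fold change at 6 h was 0.98 (SE 0.24, DESeq2 adjusted p = 1.93e-04), just under the limit. It passed (1.10) when the 0 h replicate 2 or the 6 h replicate 2 was left out. Lhx6, which carries medial eminence fate, had log2 fold changes of 0.25 and -0.10 at 2 h and 6 h, and Nkx2-1, which acts above it, 0.33 and 0.39 on 24.0 to 44.5 normalized counts per library. None of these 4 values passed the test.

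Prox1, a homeobox factor of caudal interneurons, was at 0.24 and -0.21 on the log2 scale against 0 h and at -0.45 between 2 h and 6 h (DESeq2 adjusted p = 0.0307). Zeb2, a repressor needed for interneurons to reach the cortex, was at -0.20 and 0.39, and Id2, an inhibitor of bHLH factors, at -0.27 and 0.25, with no adjusted p at or under 0.05 against 0 h. Between 2 h and 6 h, Zeb2 differed by 0.59 and Id2 by 0.52 (adjusted p = 0.00533 and 9.37e-04). The 2 h replicates of Zeb2 lay at 5884 and 4022 normalized counts. Exons of Zeb2 and Prox1 overlap the opposite-strand genes Zeb2os and Prox1os, and Zeb2 had non-whole counts in 4 libraries, so its reads may be shared. Of the 12 interneuron genes, 10 had positive values at 2 h and 10 at 6 h against 0 h, with medians of 0.33 and 0.40. The medians of all genes were 0.011 and -0.004, and the class was not tested against them.

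Among the deep layer genes, Fezf2 was the one called against 0 h. It encodes a zinc finger factor that specifies subcerebral projection neurons of layer 5. Fezf2 (ENSMUSG00000021743, chr14:12342094-12348189, minus strand) had 334.7 and 351.4 normalized counts at 0 h, 627.1 and 639.9 after 2 h, and 891.3 and 985.2 after 6 h. The 3 groups did not overlap and their means rank with time. Fezf2 was 2.73-fold higher after 6 h than at 0 h (log2 fold change 1.45, SE 0.14, DESeq2 adjusted p = 3.53e-22, 95% interval 1.17 to 1.73). At 2 h its log2 fold change of 0.88 (SE 0.15, adjusted p = 2.85e-08) stayed under the limit, and from 2 h to 6 h it was 0.57 (adjusted p = 2.47e-04).

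Bcl11b (Ctip2), which acts downstream of Fezf2 in the same neurons, had 1885 and 1691 normalized counts at 0 h, 1784 and 1487 after 2 h, and 1759 and 1737 after 6 h. The groups overlapped, and the log2 fold changes were -0.13 (95% interval -0.41 to 0.15) and -0.03 (-0.31 to 0.25) at 2 h and 6 h. The log2 ratio of Fezf2 to Bcl11b averaged -2.38, -1.36 and -0.90 at 0, 2 and 6 h, and the groups did not overlap. Bcl11a, its paralogue, had log2 fold changes of -0.11 and -0.12, neither of which passed the test.

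Tbr1 (ENSMUSG00000035033, chr2:61802930-61814114, plus strand), the T-box factor of layer 6 corticothalamic neurons, dipped before it was called. It had 1967 and 1760 normalized counts at 0 h, 1428 and 1154 after 2 h, and 2949 and 2975 after 6 h. The 2 h libraries were the lowest and the 6 h libraries the highest, with no overlap. Against 0 h the log2 fold changes were -0.53 at 2 h (SE 0.15, DESeq2 adjusted p = 0.00258) and 0.67 at 6 h (SE 0.15, adjusted p = 3.12e-05), both under the 2-fold limit. From 2 h to 6 h Tbr1 rose 2.29-fold (log2 fold change 1.20, SE 0.15, adjusted p = 2.17e-14). The log2 ratio of Tbr1 to Bcl11b averaged 0.06, -0.34 and 0.76 at the 3 times.

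The corepressor Tle4, of layer 6, had 1055 and 1067 normalized counts at 0 h, 1549 and 1675 after 2 h, and 1713 and 1545 after 6 h. Both treated groups lay above 0 h, by 0.60 and 0.62 on the log2 scale (DESeq2 adjusted p = 1.59e-05 and 4.22e-06), under the limit. Foxp2, a forkhead factor of deep layer neurons, had 511.3 and 424.7 normalized counts at 0 h, 407.4 and 213.0 after 2 h, and 440.9 and 408.7 after 6 h. Its log2 fold change of -0.59 at 2 h did not pass the test (adjusted p = 0.144), and without the 2 h replicate 1 it was -1.15 and called. Foxp1 was at -0.04 and 0.34, Sox5, which times the making of deep layer neurons, at 0.04 and 0.20, Etv1, a marker of layer 5, at -0.14 and 0.26, and the LIM-only gene Lmo3 at -0.01 and -0.19 on the log2 scale at 2 h and 6 h. None of these 8 values passed the test. Foxp1 overlaps Gm20696 on the same strand and had non-whole counts in 4 libraries. The 10 deep layer genes had medians of -0.07 at 2 h and 0.23 at 6 h, with 3 and 6 positive values, beside medians of 0.011 and -0.004 over all genes.

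Upper layer genes were mixed in direction. Pou3f2 (Brn2), a POU factor that promotes upper layer fate together with Pou3f3 (Brn1), is read from ENSMUSG00000095139 (chr4:22482780-22488366, minus strand). It had 833.6 and 711.3 normalized counts at 0 h, 773.9 and 362.9 after 2 h, and 1877 and 1832 after 6 h. The 6 h libraries lay above all others, and the 2 h replicates stood on both sides of the lower 0 h library. Pou3f2 was 2.40-fold higher after 6 h than at 0 h (log2 fold change 1.26, SE 0.31, DESeq2 adjusted p = 1.50e-04) and 3.26-fold higher after 6 h than after 2 h (1.71, SE 0.31, adjusted p = 2.04e-07). Leaving out a library moved the second value between 1.27 and 2.36. At 2 h against 0 h the log2 fold change was -0.44 (adjusted p = 0.328), and without the 2 h replicate 1 it was -1.10 and called.

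Pou3f3 had 1633 and 1585 normalized counts at 0 h, 2797 and 2408 after 2 h, and 2535 and 2672 after 6 h. Both treated groups were 0.69 above 0 h on the log2 scale (DESeq2 adjusted p = 7.20e-07 and 3.12e-07), and they differed by 0.00 from each other with a 95% interval of -0.25 to 0.25. So of this pair of related factors, Pou3f3 was already above 0 h at 2 h and Pou3f2 was not, although the difference between their courses was not tested.

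Rorb (ENSMUSG00000036192, chr19:18930605-19111196, minus strand), the nuclear receptor of layer 4 neurons, had 735.9 and 581.5 normalized counts at 0 h, 790.9 and 414.6 after 2 h, and 1254 and 1239 after 6 h. The 2 h replicates enclosed the 0 h range, and the 6 h libraries lay above both. Rorb rose 2.07-fold from 2 h to 6 h (log2 fold change 1.05, SE 0.29, DESeq2 adjusted p = 9.92e-04). The call was lost without the 2 h replicate 2 (0.67), after GC correction (0.78) and with library totals (0.98). At 6 h against 0 h its log2 fold change was 0.92 (SE 0.29, adjusted p = 0.00419), just under the limit. Its counts were non-whole in all 6 libraries, so some reads were shared with other genes.

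Lmo4 and Cux2 had negative values at 6 h. Lmo4 had 5900 and 5453 normalized counts at 0 h, 6481 and 6123 after 2 h, and 4200 and 4291 after 6 h. Its log2 fold change at 6 h was -0.42 against 0 h (DESeq2 adjusted p = 2.22e-04) and -0.57 against 2 h (adjusted p = 3.06e-07), short of the 2-fold limit. Cux2, a homeobox factor of layers above the fifth, had 1261 and 1133 normalized counts at 0 h, 1345 and 1473 after 2 h, and 911.7 and 1012 after 6 h, with log2 fold changes of -0.32 at 6 h against 0 h (adjusted p = 0.0522) and -0.55 against 2 h (adjusted p = 3.18e-04). In TPM, which correct for length, Cux2 averaged 18.2 at 0 h, 16.6 at 2 h and 17.7 at 6 h, and Lmo4 432, 411 and 283. Cux1, the relative of Cux2 (0.08 and 0.09), and the chromatin organizer Satb1 (0.04 and 0.09) did not pass the test at 2 h or 6 h.

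The projection neuron genes other than Emx1 are bHLH factors of the Neurod family, which act in sequence as neurons mature. Neurod6 had 6928 and 6848 normalized counts at 0 h, 10651 and 9689 after 2 h, and 11216 and 11472 after 6 h, with log2 fold changes of 0.56 and 0.72 (DESeq2 adjusted p = 4.05e-07 and 1.16e-11). Neurod2 had 819.4 and 820.0 at 0 h, 1378 and 1169 after 2 h, and 834.6 and 903.5 after 6 h, so that 0.64 at 2 h (adjusted p = 1.03e-04) was followed by -0.55 from 2 h to 6 h (adjusted p = 5.45e-04). Neurod1 had the lowest log2 fold change of all members at 2 h.

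Neurod1 had 265.4 and 348.9 normalized counts at 0 h, 187.7 and 139.6 after 2 h, and 162.6 and 238.8 after 6 h. Its log2 fold change was -0.91 at 2 h (SE 0.29, DESeq2 adjusted p = 0.0101) and -0.61 at 6 h (adjusted p = 0.0732). The 2 h value passed the limit with library totals or without the 0 h replicate 1 (-1.08 in both) and without the 2 h replicate 1 (-1.15). An exon of Cerkl on the same strand overlaps Neurod1, and Cerkl had 1.1 to 25.3 normalized counts per library. The log2 ratio of Neurod1 to Neurod6 averaged -4.50 at 0 h, -5.97 at 2 h and -5.85 at 6 h, with both treated groups below 0 h. Emx1, a homeobox gene of the dorsal forebrain, was read with 17.8 to 50.7 normalized counts per library, and its log2 fold changes of 0.82 and 0.86 had SE of at least 0.55 and did not pass the test.

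Reln, the secreted glycoprotein of Cajal-Retzius cells and some interneurons, had 7182 and 6513 normalized counts at 0 h, 9475 and 9670 after 2 h, and 9038 and 8808 after 6 h. Both treated groups lay above 0 h, by 0.48 and 0.38 on the log2 scale (DESeq2 adjusted p = 2.65e-05 and 7.19e-04). Calb1 (calbindin) had 1150 and 986.0 normalized counts at 0 h, 1587 and 1045 after 2 h, and 1704 and 1709 after 6 h, and its 6 h value of 0.68 passed the adjusted p (0.00471) but not the limit. Calb2 (calretinin) was at 0.12 and -0.31 against 0 h and at -0.43 between 2 h and 6 h (adjusted p = 0.00706). Pvalb had 1.1 to 9.3 normalized counts per library, so that a change was not detectable at this depth, and its 95% interval at 6 h was -3.66 to 1.64 on the log2 scale.

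Summed over a class, levels in TPM are led by its most abundant genes. The upper layer sum, most of it Lmo4, was 610 and 551 TPM at 0 h, 551 and 572 after 2 h, and 446 and 461 after 6 h. The projection neuron sum, most of it Neurod6, was 293 and 297, then 395 and 364, then 402 and 420 TPM. The interneuron sum was 425 and 453, then 433 and 430, then 567 and 552 TPM. From 0 h to 6 h its largest gains in mean level were those of Nr2f1, from 36.8 to 89.1 TPM, and Zeb2, from 101 to 138 TPM, which are not exclusive to interneurons. Without its most abundant gene, neither the upper layer nor the projection neuron sum kept its direction, while the interneuron sum did. Without Lmo4 the upper layer members summed to 150 and 147 TPM at 0 h and to 166 and 175 TPM at 6 h, so that the lower sum at 6 h is that of Lmo4. Without Neurod6 the projection neuron members summed to 29.3 and 32.9 TPM at 0 h and to 25.6 and 28.3 TPM at 6 h. Without Id2, the most abundant of them at 0 h, the interneuron members summed to 289 and 296 TPM at 0 h. At 6 h they summed to 408 and 400 TPM. Of the other identity genes, the upper layer sum was 312 and 299 TPM at 0 h and 404 and 399 at 6 h. Without Kitl it was 274 and 266 and then 266 and 267 TPM. The Cajal-Retzius sum was 28.3 and 32.9, then 21.8 and 24.6 TPM, and without Cxcr4 11.2 and 9.12, then 11.5 and 14.1. The other sums kept their direction without their top gene. The interneuron sum went from 550 and 604 to 755 and 807 TPM without Gad1. The deep layer sum went from 429 and 441 to 394 and 375 without Ldb2, and the projection neuron sum from 165 and 160 to 150 and 154 without Bhlhe22. Among the members, the deep layer sum (284 to 335 TPM) and the reelin and calcium-binding sum (166 to 208 TPM) covered narrower ranges over the 6 libraries.

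**Figure D5:**
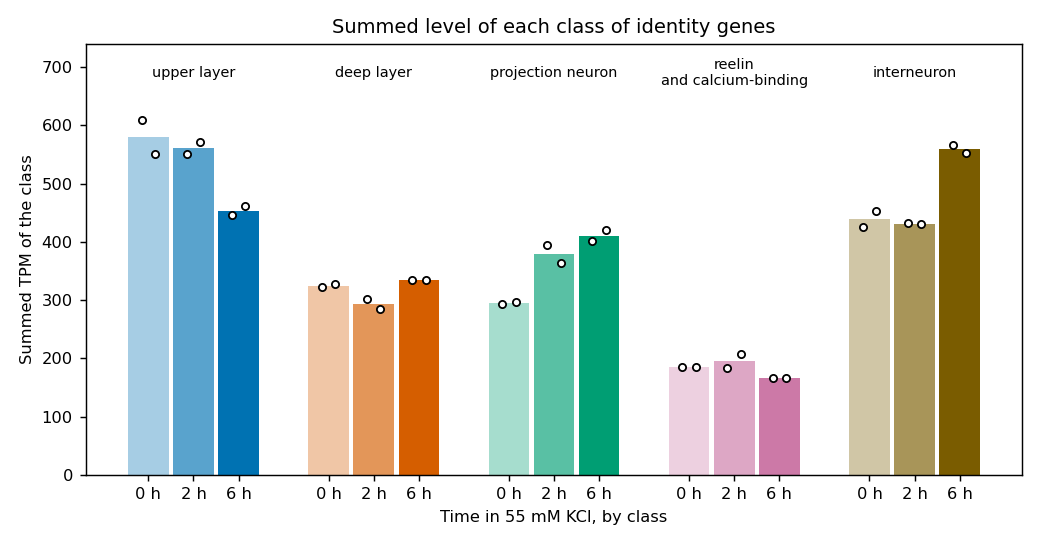
Summed TPM of each class of identity genes by hours in 55 mM KCl; bars are the mean of the 2 libraries, drawn from 0, and circles the libraries. At 6 h the upper layer sum, most of it Lmo4, is 446 and 461 TPM, below 0 h, and the interneuron sum is 567 and 552 TPM, above 0 h.

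A further 63 identity genes not among the members gave the surroundings. Of 20 interneuron genes, 2 were called higher at 2 h against 0 h (Sp9, a zinc finger factor of young interneurons, with a log2 fold change of 1.43, and Tac1, the substance P precursor, with 1.58) and 4 at 6 h (Tac1 1.84, and the GABA-synthesizing enzymes Gad1 with 1.41 and Gad2 with 1.36, and Sst, named after its value was seen, with 1.05). Of all genes, 3.62% and 9.10% were called higher in these comparisons, and the list was not tested against them. From 2 h to 6 h Sp9 fell by 1.01 on the log2 scale, so that its calls were those of Dlx2 and Dlx5. This call of Sp9 was lost without replicate 1 of 2 h (-0.90) or of 6 h, and that of Sst without the 6 h replicate 2 (0.99). Gad1 had 6059 and 5971 normalized counts at 0 h, 9584 and 8918 after 2 h, and 16868 and 15201 after 6 h.

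Of 16 deep layer genes, the neurotensin receptor Ntsr1 of layer 6 and the LIM cofactor Ldb2 were called lower after 6 h than at 0 h (log2 fold changes -3.01 and -1.63), and Ccn2, a marker of the subplate, was called higher (2.16). With 15 of them tested this is 13.3% lower and 6.67% higher, beside 10.2% and 9.10% of all genes. Ntsr1 had 1919 and 1777 normalized counts at 0 h, 1217 and 1445 after 2 h, and 216.1 and 243.1 after 6 h, while Tbr1 and Tle4, of the same layer, were above 0 h at 6 h. Of 10 upper layer genes, Kitl was called higher at 2 h and 6 h (1.34 and 2.14), the first on 2 h replicates of 8315 and 3550 normalized counts, and the cadherin gene Cdh6 was called higher after 6 h than after 2 h (1.20), where 10.1% of all genes were. The 2 h value of Kitl ranged from 0.59 to 1.81 when a library was left out, and its call was lost in 5 of 6 such fits, all but the one without the 2 h replicate 2. Of 9 Cajal-Retzius genes, Cxcr4 was called lower after 6 h than after 2 h (-1.31), where 8.02% of all genes were.

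The effective length of a gene, its mean transcript length weighted by abundance, moves when the mix of transcripts moves. Of the 34 members that averaged 100 counts or more, 0 were called in any comparison by limma's moderated test (adjusted p of at most 0.05 and a log2 ratio of at least 0.2), against 0.0356%, 0.525% and 0.116% of 11233 genes at 2 h against 0 h, 6 h against 0 h and 6 h against 2 h. Cux2 came nearest, with effective lengths of 4520 and 4816 bases at 0 h, 5054 and 5498 after 2 h, and 3396 and 3349 after 6 h. At an unadjusted p under 0.05 without a limit on the ratio there were 4, 5 and 4 members in the 3 comparisons. The log2 ratio of Cux2 at 6 h was -0.47 against 0 h (limma adjusted p = 0.0794) and -0.64 against 2 h (adjusted p = 0.0764). Rorb had 8786 and 8868 bases at 0 h, 7784 and 6941 after 2 h, and 6900 and 7764 after 6 h, and with this length in the normalization its 6 h call against 0 h passed the limit (1.16).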

How the data were processed

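RNA was selected for poly(A) tails in 2 rounds and sequenced as stranded paired-end libraries, 2 per time point. Per the study's methods, the authors trimmed reads with Trim Galore and quantified genes on mm10 with RSEM. The submitters' processing notes name RSEM 1.3.0 and Bowtie2 2.2.9. The annotation release and the strand setting of RSEM are not given in the sources used here. The deposited expected counts are unnormalized, and RSEM divides reads that fit several genes. The TPM values deposited by the authors are corrected for effective length, which the authors also deposited per gene in bases. The deposited FPKM values were not used.

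Members were matched by symbol in GENCODE M21 (GRCm38), which named 42548 of 43432 genes. The members, the other lists, tests and alternatives were chosen with earlier results of these data known. The named genes are every member, Fos, and of each other list the called genes with at most the 3 largest and 3 smallest changes per comparison. Genes that overlap a member and Dlx6os1 were added after the data were seen. A gene of the other lists is not reported here.

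Rounded expected counts of 22515 genes were fitted with DESeq2 1.42.0 in R 4.3.3, with 6 libraries in 1 fit, group as the only term, median-of-ratios size factors, the two-sided Wald test and Benjamini-Hochberg adjustment after independent filtering. Calls followed the thresholds of the study's methods, an adjusted p no higher than 0.05 with a fold change over 2 either way (log2 beyond 1). Log2 effective length was tested with limma 3.58.1 over genes averaging 100 counts or more. Alternatives were other size factors, edgeR 4.0.16, a mean count of at least 10, no independent filtering, a test against 2-fold, no fold limit, effective length and GC in the normalization, a replicate block, and leaving out each library. The code was tested on simulated data. Precision came from 25959298 to 28573067 counts per library, and intervals cover the model's error over 2 libraries.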

Additional observations from a re-analysis of the deposited data

How the results depend on the processing

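No member's fold change that was called reversed under any alternative tried. The calls of Fezf2 and Nr2f1 at 6 h against 0 h held under all 16 alternatives (log2 fold changes of 1.21 to 1.59 and 1.26 to 1.63). A test against a 2-fold change, which is stricter by construction, left 0 of the 2 members called higher at 2 h against 0 h. At 6 h against 2 h it left 0 of the 4 called higher and 0 of the 2 called lower. At 6 h against 0 h it ended the call of Pou3f2 and kept those of Fezf2 and Nr2f1. Without a fold limit the counts were 10 higher and 2 lower at 2 h against 0 h, and 12 higher and 1 lower at 6 h against 0 h. At 6 h against 2 h they were 9 higher and 7 lower, and none was set beside that of all genes. Library totals as size factors gave 1 higher and 1 lower at 2 h against 0 h. For members called lower at 6 h against 2 h, GC correction gave 1, the replicate block gave 1 and the replicate block with GC correction gave 1. Leaving out each library in turn gave 0 to 3 members called lower at 2 h against 0 h (1 without the 0 h replicate 1 and 3 without the 2 h replicate 1) and 0 to 2 called lower at 6 h against 2 h (0 without the 2 h replicate 2 and 1 without the 6 h replicate 2). A group left with 1 library was taken to vary like the others, and the causes of these shifts were not tested. The labels link same-numbered libraries by number only and do not say whether they share a culture or a batch. Correlations of their deviations were 0.281 for 2 h with 0 h, -0.002 for 6 h with 0 h and 0.152 for 6 h with 2 h. Apart from Dlx2 at 6 h against 2 h, the replicate block changed no call of a member. With 2 libraries per group and few counts, changes of Pvalb, Emx1 and Nkx2-1 were the least resolved.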
